A study of Homo sapiens with 18 samples.

Results

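SKIDA1, DOCK9 and VENTX are 3 genes that carry H3K27me3 blocks in MOLM-13 cells, a myeloid leukemia line whose KMT2A gene is rearranged. They were chosen by their H3K27me3 levels and by the H3K27me3 difference between PR-957 and DMSO in these same libraries, so their H3K27me3 values are given as a description. Where H3K27me3 calls in the windows are counted or marked in a figure, that choice made them likely, and they are no finding. Every Cut&Tag interval that overlaps the gene body of a member with 20 kb on either side was taken as a window interval. The windows held 191 of the 275391 intervals listed over 4 histone modifications: 72 of 33437 for H3K27me3, 43 of 74559 for H3K27ac, 38 of 108165 for H3K4me1 and 38 of 59230 for H3K4me3. SKIDA1 had 69 of the window intervals, DOCK9 72 and VENTX 50.

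In Cut&Tag, an antibody bound to a histone modification directs a transposase that cuts and tags the DNA nearby. Cells received 100 nM PR-957, an inhibitor of the immunoproteasome subunit PSMB8 also named ONX-0914, or DMSO as the diluent control. The sample labels give 72 h of treatment, while a figure legend of the study gives a shorter time. Each modification had 2 DMSO and 2 PR-957 libraries, and the 2 IgG samples were not analysed here. The total count per library ranged from 10032503 to 12047958 for H3K27me3, 9885836 to 14165777 for H3K27ac, 15204186 to 30584219 for H3K4me1 and 30070119 to 44591150 for H3K4me3. Levels below are CPM after TMM scaling. The labels do not say whether replicates were separate cultures, so p-values measure the spread between these libraries, which may be technical. As a check of the cell type, 9 of 10 myeloid and KMT2A-rearranged marker genes had an H3K4me3 interval within 2 kb of a start site and all 10 had an H3K27ac interval, against 0 of 4 T cell genes in either modification. The contrast was less sharp for other types: B cell genes had 1 and 2 of 4, erythroid genes 1 and 0 of 3, and epithelial and liver genes 2 and 1 of 3.

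H3K27me3 is laid down by Polycomb repressive complex PRC2, whose catalytic subunit is EZH2 or EZH1, and marks genes held silent, often developmental regulators with CpG-rich start sites. H3K4me3 marks start sites, H3K27ac marks active start sites and enhancers, and H3K4me1 marks enhancers and their surroundings. Start sites that carry H3K27me3 together with H3K4me3 are called bivalent. KMT2A fusion proteins keep a set of targets active in leukemia, among them the HOXA genes and MEIS1, and VENTX and SKIDA1 are counted among such targets. SKIDA1 encodes a SKI/DACH domain protein of little-studied function and lies head to head with MLLT10, a known fusion partner of KMT2A. DOCK9 encodes a guanine nucleotide exchange factor for CDC42. VENTX encodes a homeobox transcription factor of the hematopoietic and myeloid lineage and lies next to UTF1, a gene of undifferentiated embryonic cells.

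All 3 members had a RefSeq promoter sequence, in 4 windows that run from 250 bases before to 50 bases after a start site (GRCh38.p14, 5′ to 3′ in the direction of the gene). They are shown because H3K27me3 lay over some of these start sites and not over others, and CG dinucleotides are in capitals. The SKIDA1 window is chr10:21525633-21525932 on the minus strand and the VENTX window chr10:133237605-133237904 on the plus strand. The DOCK9 windows are chr13:99086645-99086944, at the start of the long transcripts, and chr13:98978015-98978314, at an internal start, both on the minus strand.
SKIDA1: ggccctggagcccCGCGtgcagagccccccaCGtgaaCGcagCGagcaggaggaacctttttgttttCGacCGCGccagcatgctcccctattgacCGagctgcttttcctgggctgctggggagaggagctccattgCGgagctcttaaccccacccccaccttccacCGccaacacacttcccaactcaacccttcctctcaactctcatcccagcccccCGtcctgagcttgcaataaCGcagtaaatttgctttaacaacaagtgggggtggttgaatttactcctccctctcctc
VENTX: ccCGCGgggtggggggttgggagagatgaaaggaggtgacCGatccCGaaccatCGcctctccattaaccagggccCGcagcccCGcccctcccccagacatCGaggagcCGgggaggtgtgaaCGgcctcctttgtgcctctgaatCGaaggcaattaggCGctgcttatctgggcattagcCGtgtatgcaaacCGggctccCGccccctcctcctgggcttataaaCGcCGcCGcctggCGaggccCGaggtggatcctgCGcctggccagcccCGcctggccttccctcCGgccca
DOCK9, start of the long transcripts: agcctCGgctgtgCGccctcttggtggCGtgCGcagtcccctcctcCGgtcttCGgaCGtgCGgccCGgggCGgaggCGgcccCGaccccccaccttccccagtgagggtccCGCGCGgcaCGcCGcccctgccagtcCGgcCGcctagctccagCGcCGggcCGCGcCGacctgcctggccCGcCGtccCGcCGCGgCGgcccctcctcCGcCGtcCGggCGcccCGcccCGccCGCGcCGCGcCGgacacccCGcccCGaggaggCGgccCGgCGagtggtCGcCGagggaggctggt
DOCK9, internal start: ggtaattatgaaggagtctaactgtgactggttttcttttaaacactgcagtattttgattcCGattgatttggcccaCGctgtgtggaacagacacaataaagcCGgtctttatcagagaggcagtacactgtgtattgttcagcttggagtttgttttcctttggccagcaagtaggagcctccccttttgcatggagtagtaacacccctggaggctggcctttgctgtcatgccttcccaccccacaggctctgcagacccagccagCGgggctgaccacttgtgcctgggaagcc

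The promoters differed in base composition. The DOCK9 window at the long transcripts held 48 CG dinucleotides, at percentile 98.2 of 35116 promoters, with a GC share of 82.3% and an observed over expected CG ratio of 0.963. The VENTX window held 23, at percentile 65.2, with a GC share at percentile 72.6 and a ratio of 0.687. The SKIDA1 window held 13, at percentile 49.0, with a GC share of 58.3% and a ratio of 0.549. The internal DOCK9 window held 4, at percentile 27.1, with a GC share of 50.7% and a ratio of 0.208. A CG occurred at least once in 96.0% of all promoters, whose median was 14. H3K27me3 intervals overlapped the VENTX window and both DOCK9 windows, 4, 4 and 2 of them, and none overlapped the SKIDA1 window. The 2 at the internal DOCK9 start were weak, with 10 to 42 counts per library. They held 1.07 and 0.998 CPM per kb in DMSO, at percentiles 32.0 and 28.9 of all H3K27me3 intervals.

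The 3 loci carried H3K27me3 in different positions. At SKIDA1 the block lay downstream of the main start site, and at VENTX the block covered the whole gene. At DOCK9 a block covered the start site and another lay within an intron. H3K27me3 per kb was compared by the interval of highest mean count in each block. In DMSO it was 8.06 CPM per kb at the DOCK9 start site (8.20 and 7.92) and 5.93 in the DOCK9 intron. It was 5.71 at SKIDA1 and 3.18 at VENTX (3.24 and 3.11). The DOCK9 intron (5.88 and 5.99) and SKIDA1 (5.91 and 5.51) overlapped and were not ordered beyond their spread. These densities were at percentiles 95.6, 93.3, 92.9 and 82.0 of all H3K27me3 intervals. In PR-957 the start site of DOCK9 was still highest by these intervals, at 6.35 CPM per kb. The VENTX block (4.03 and 3.75) then lay beside the DOCK9 intron (3.93 and 3.68) and above SKIDA1 (3.49 and 3.57). Some narrower intervals of the same blocks were denser. In DMSO the densest held 8.87 CPM per kb at the DOCK9 start site, 6.49 in its intron, 7.45 at SKIDA1 and 5.58 at VENTX. In PR-957 the same intervals held 6.94, 4.23, 4.96 and 6.96, so both orders depend on the interval chosen.

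**Figure D1:**
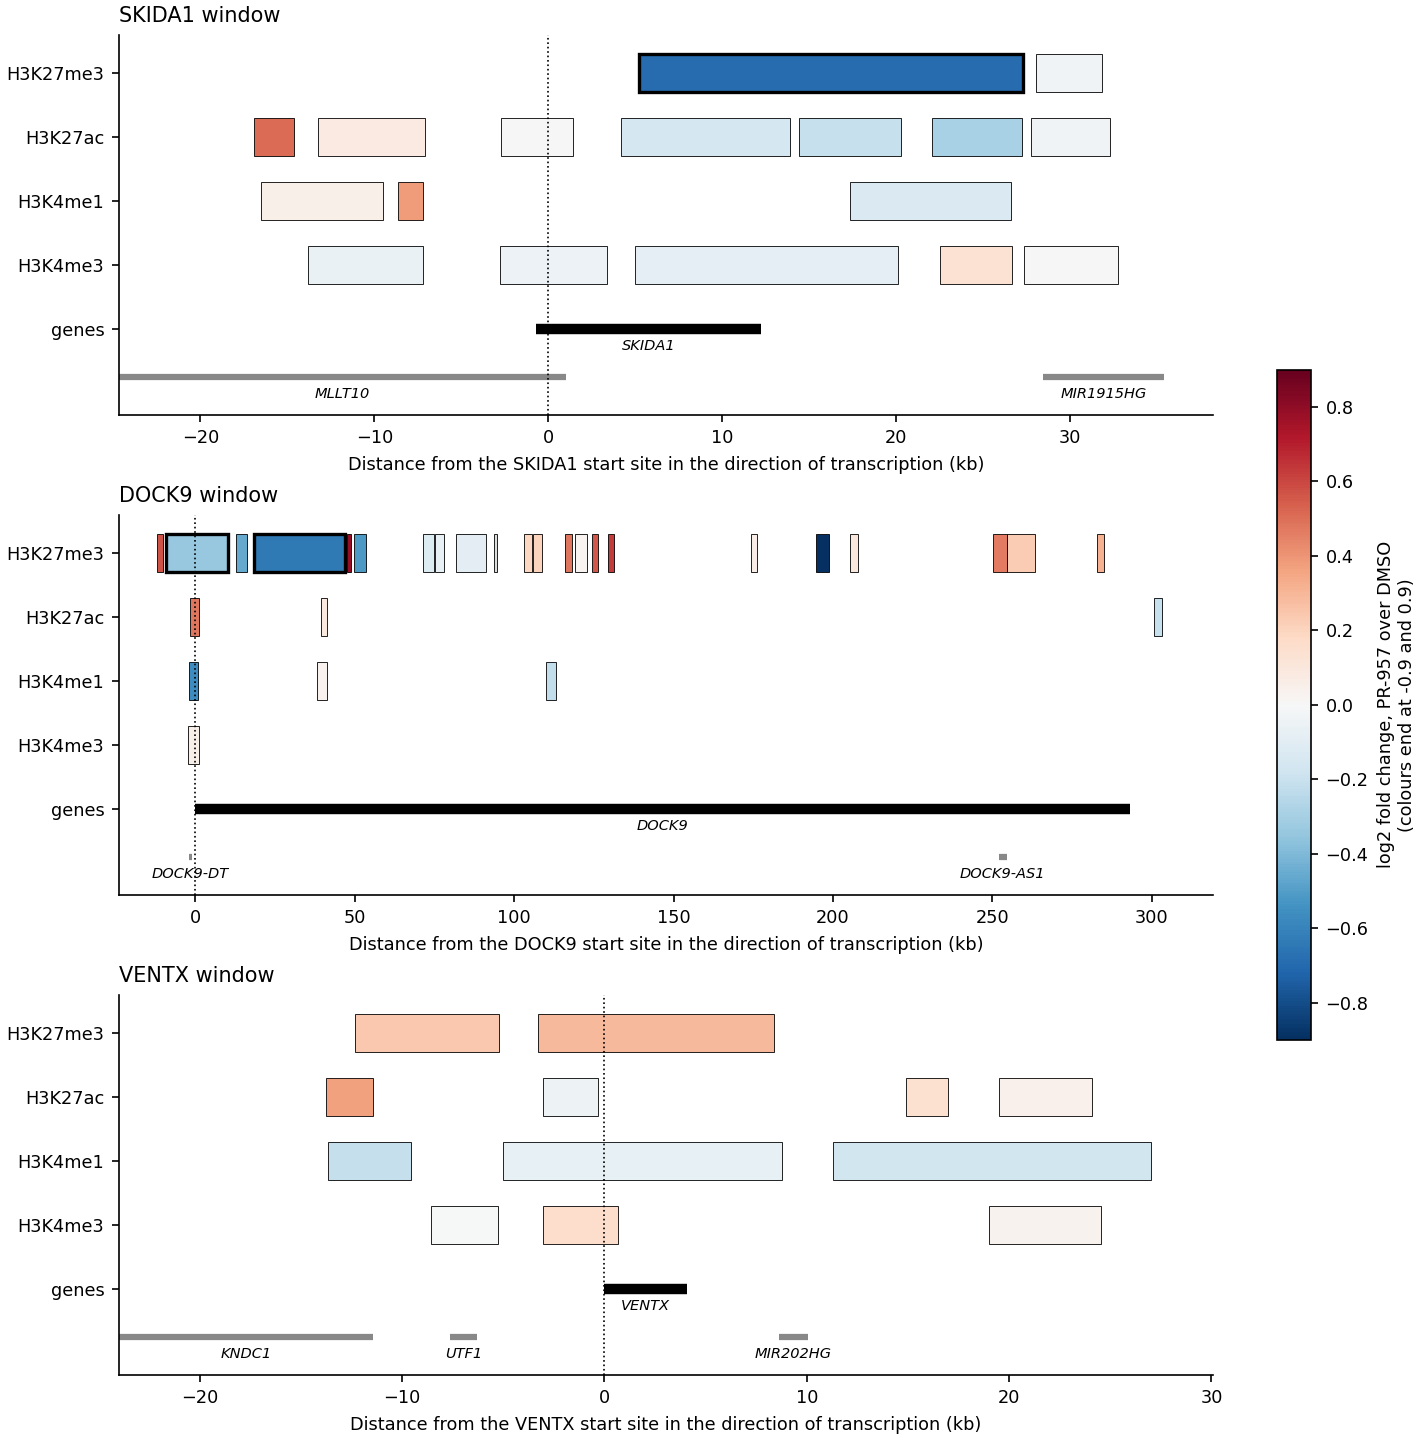
Maps of the 3 windows by distance from the start site (kb), with the leading interval of each merged locus in each modification as a box, coloured by log2 fold change and outlined heavily where the edgeR adjusted p was at or under 0.05. The H3K27me3 block of SKIDA1 starts 5.24 kb downstream of the start site, and many small H3K27me3 boxes at DOCK9 hold few counts.

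In the SKIDA1 window, 9 H3K27me3 intervals formed 2 merged loci. The interval of highest mean count, chr10:21498380-21520447, spans from 5.24 to 27.3 kb downstream of the SKIDA1 start site, covers the last exon and an annotated downstream start, and runs on past the end of the gene toward MIR1915HG. It held 130.3 and 122 CPM in DMSO and 77.0 and 78.7 CPM in PR-957. Both PR-957 libraries were below both DMSO libraries, with a log2 fold change of -0.69 ± 0.07 (SE). The 7 intervals of this locus had log2 fold changes of -0.87 to -0.58. The most negative was chr10:21511879-21520481, over the last exon, with 48.8 and 48.2 CPM in DMSO and 25.4 and 27.7 in PR-957. At the far end, chr10:21498328-21505077 had 47.4 and 38.4 CPM in DMSO and 29.1 and 28.1 in PR-957, with a log2 fold change of -0.58. Whether the ends of the block differ was not tested. The other locus, at MIR1915HG, held 5.40 and 6.34 CPM in DMSO and 6.86 and 4.72 in PR-957. All 7 intervals of the block, of 9 tested, were lower at an edgeR adjusted p at or under 0.05. Over all 31806 intervals tested, 5.09% were called lower and 0.824% higher, 1620 and 262 intervals. That balance depends on the scaling: it was 698 lower and 1521 higher with library size alone, and 963 and 796 with cyclic loess. Since this contrast chose the genes, nothing is read from that comparison.

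DOCK9 is 293197 bp long, and its window held 54 H3K27me3 intervals in 22 merged loci. Of these, 53 passed the count filter and 10 were called lower, against 5.09% over all intervals tested. The 10 are overlapping intervals of 2 loci, 6 and 4 of them, and nothing is read from the count. The intronic interval chr13:99039600-99068084 contains no annotated exon of the gene and lies 18.5 to 47.0 kb downstream of the outermost start site. It held 168 and 171 CPM in DMSO and 112 and 105 CPM in PR-957. Here too the treatments did not overlap, and the log2 fold change was -0.64 ± 0.06 (SE). Toward its promoter-facing end, chr13:99064816-99068031 had 7.62 and 7.93 CPM in DMSO and 4.26 and 2.63 in PR-957, with a log2 fold change of -1.19. The interval over the start site, chr13:99076333-99095872, held 160.3 and 155 CPM in DMSO and 125 and 123 CPM in PR-957, with a log2 fold change of -0.34 ± 0.06 (SE). It was thus lower in PR-957 by a smaller amount than its intronic neighbour, a difference that was not tested. The intronic block was poor in CG, with an observed over expected ratio of 0.196, against 0.429 for the start site block and a median of 0.298 over all H3K27me3 intervals. The other 44 DOCK9 intervals were weak, with a mean of at most 14.8 CPM in DMSO, and of the 43 tested 17 had a negative and 26 a positive log2 fold change.

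At VENTX the H3K27me3 values leaned the other way. Its 9 intervals formed 2 loci, and 0 of 9 were called in edgeR or DESeq2, with 7 at an unadjusted p under 0.05, from which nothing is read. The interval over the gene, chr10:133234549-133246238, held 37.9 and 36.4 CPM in DMSO and 47.1 and 43.8 CPM in PR-957. Both PR-957 libraries were above both DMSO libraries, with a log2 fold change of 0.29 ± 0.10 (SE). The neighbouring block at UTF1, chr10:133225505-133232634, held 15.1 and 19.6 CPM in DMSO and 22.3 and 19.2 in PR-957, which overlapped. The other 3 intervals of that block share most of its bases and are not separate observations. Their log2 fold changes were 0.30 to 0.34. The VENTX interval was called higher only under 3 of 13 alternative settings. Its log2 fold change there was 0.45 with library size alone, 0.35 with cyclic loess and 0.35 at a mean count of at least 50. Over all 13 settings it ran from 0.19 to 0.45. The VENTX interval had a GC share of 62.0%, against a median of 51.8% over all H3K27me3 intervals. The share was 46.8% at SKIDA1, 43.4% in the DOCK9 intron and 46.7% at the DOCK9 start site. Whether GC share bears on the direction was not tested. Scaling by library size alone moved the median log2 fold change of all H3K27me3 intervals by 0.16. With it, the leading intervals stood at -0.53 for SKIDA1, -0.48 for the DOCK9 intron and -0.18 for the DOCK9 start site, so each kept its direction, and 17 window intervals were called lower and 7 higher.

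**Figure D2:**
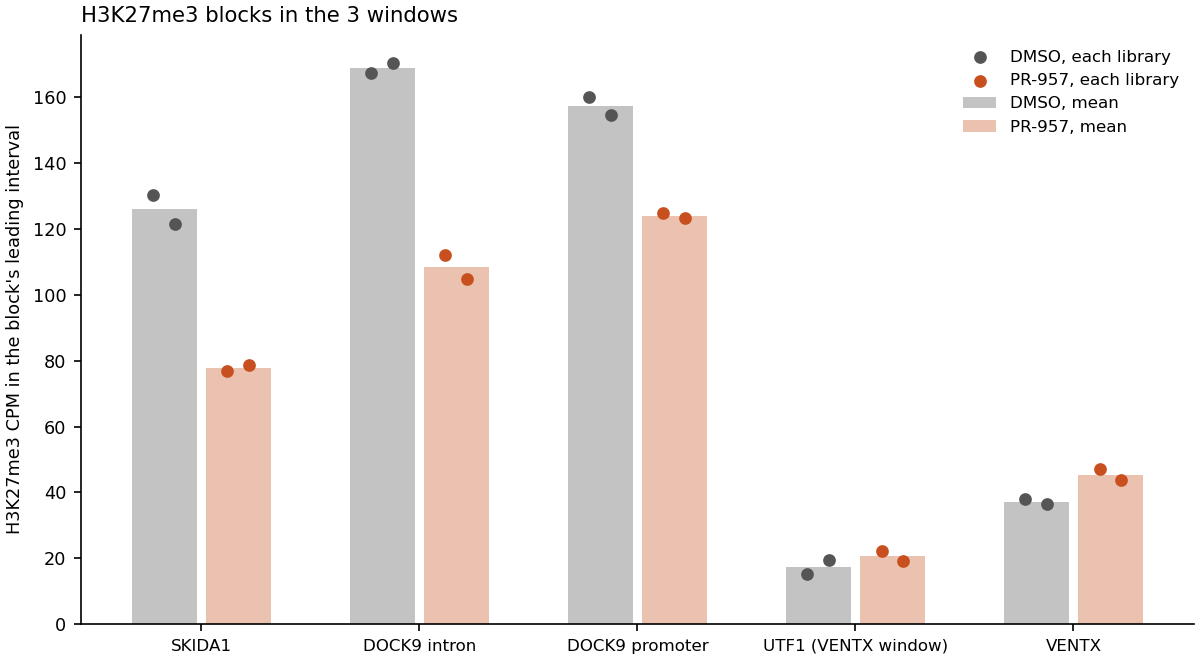
H3K27me3 CPM (vertical axis, from 0) in each library, with group means as bars, for the leading interval of 5 blocks. The SKIDA1 and DOCK9 blocks are lower in both PR-957 libraries, the VENTX block is higher in both, and the leading UTF1 interval overlaps.

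The blocks were then set beside their surroundings. No H3K27me3 interval lay within 100 kb outside the SKIDA1 window, and the nearest were 336 and 909 kb from the gene, with log2 fold changes of 0.0033 and -0.30. Just inside the window edge on the MIR1915HG side, the outermost interval had -0.04. Outside the DOCK9 window, at 43.4 kb from the gene, chr13:99129997-99149923 held 108 and 101 CPM in DMSO and 65.6 and 68.6 CPM in PR-957, with a log2 fold change of -0.64. The outermost VENTX window interval, at UTF1, had 0.30. The outermost interval inside the DOCK9 edge on that side was weak, with 1.16 and 1.06 CPM in DMSO and 1.11 and 2.17 in PR-957. In the 100 kb on either side of the DOCK9 window, the median of 9 tested intervals was -0.62, against -0.07 over chromosome 13. In the same flanks of VENTX, the median of 15 intervals was 0.18, against -0.01 over chromosome 10. Intervals of the same locus can overlap, so these medians need not rest on as many separate observations. The block at 43.4 kb is among the DOCK9 flank intervals. The nearest interval outside on the ADAM8 side, at CALY, held 42.8 and 48.6 CPM in DMSO and 54.1 and 50.1 in PR-957.

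The other modifications were measured in libraries of their own and were tested. No window interval passed in any of them. For H3K27ac, 0 of 43 were called in edgeR, where 0.238% of 74510 intervals were called in either direction. For H3K4me1, 0 of 38 were called, against 1.94% of 108158, and for H3K4me3, 0 of 38, against 0.226% of 59229. At an unadjusted p under 0.05 there were 7, 0 and 0 intervals, and DESeq2 also called 0 in each and had 4, 0 and 0 under that limit. DESeq2 called fewer intervals altogether, 85 for H3K27ac, 26 for H3K4me1 and 34 for H3K4me3, against 177, 2099 and 134 in edgeR, so its zeros add little. At these background rates hardly any call was to be had among so few intervals, so the count says little, and most values below are given with a 95% interval.

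**Figure D3:**
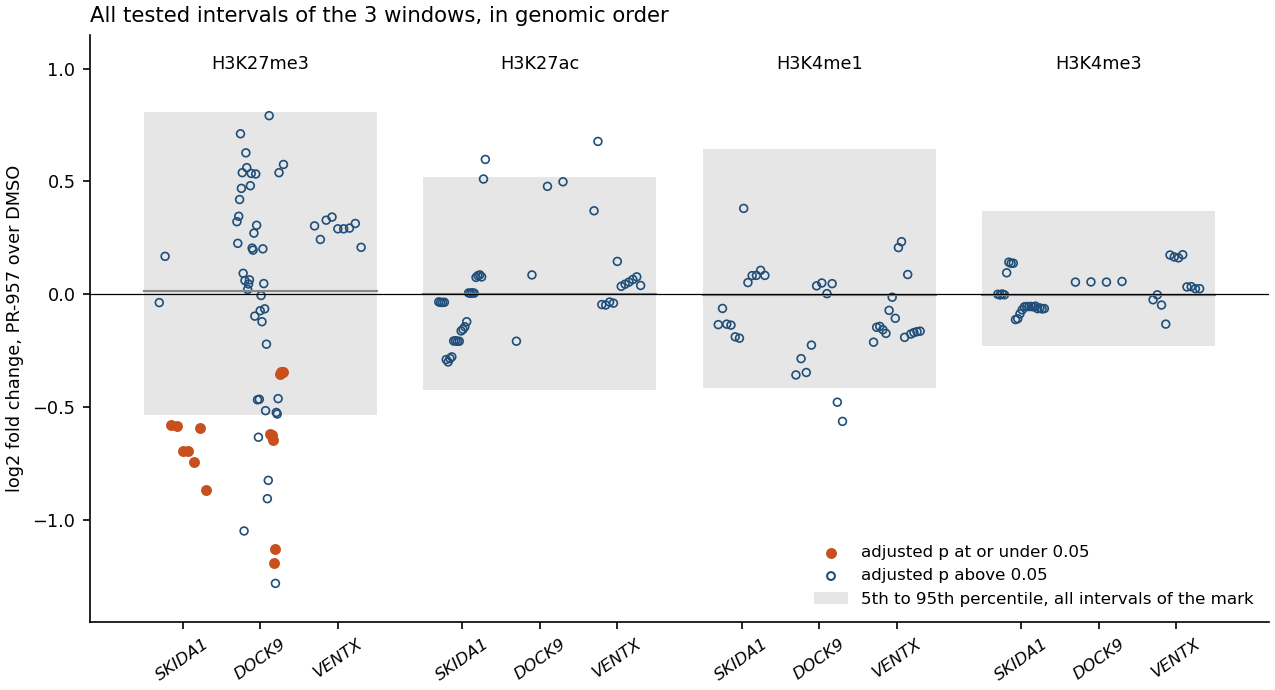
Log2 fold change (vertical axis) of each tested window interval by member and modification, with the 5th to 95th percentile of all intervals of that modification in grey. Filled points passed an edgeR adjusted p of 0.05, and all of them are H3K27me3 intervals of SKIDA1 and DOCK9.

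The main SKIDA1 start site had the most H3K27ac of the 3 and held no H3K27me3 interval within 2 kb. Its H3K27ac interval, chr10:21524235-21528384, held 70.9 and 71.7 CPM in DMSO and 66.0 and 76.5 CPM in PR-957. This was 17.2 CPM per kb, at percentile 98.4 of all H3K27ac intervals, and the treatments overlapped. The log2 fold change was 0.0064, with a 95% interval of -0.14 to 0.15 and an edgeR adjusted p of 0.994. H3K4me3 over the same site, chr10:21522306-21528442, held 33.1 and 30.7 CPM in DMSO and 31.2 and 30.2 in PR-957, with a log2 fold change of -0.05 with a 95% interval of -0.20 to 0.10 and an adjusted p of 0.934. MLLT10 shares this site, and its own start sites further on had H3K27ac and H3K4me3 log2 fold changes of 0.08 and -0.06.

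Inside the SKIDA1 H3K27me3 block, active marks were present as well. H3K27ac intervals shared 92.0% of the H3K27me3 bases in the window and H3K4me3 intervals 89.4%, whereas over the genome these shares were 8.12% and 9.82%. Such shares, here and below, compare the extents of intervals from separate libraries. They do not show that both modifications lie on the same DNA molecules. Within the block, the H3K27ac interval with the smallest p of the window, chr10:21505548-21511266, held 62.9 and 64.8 CPM in DMSO and 53.5 and 56.7 CPM in PR-957. Both PR-957 libraries were lower, with a log2 fold change of -0.21 (95% interval -0.36 to -0.05), but the edgeR adjusted p was 0.388. The neighbouring chr10:21498465-21503611 held 21.6 and 21.9 CPM in DMSO and 17.3 and 18.2 in PR-957, with a log2 fold change of -0.29 and an adjusted p of 0.595. All 7 intervals at an unadjusted p under 0.05 lay in these 2 loci, and none was left below it without PR-957 replicate 1. Over the last exon, H3K27ac at chr10:21511772-21521500 held 48.7 and 39.9 CPM in DMSO and 37.0 and 42.6 in PR-957, which overlapped. Its log2 fold change was -0.15, with an edgeR adjusted p of 0.725. H3K4me3 across the block, chr10:21505552-21520671, held 42.6 and 42.8 CPM in DMSO and 39.1 and 41.3 in PR-957, with a log2 fold change of -0.09 (95% interval -0.23 to 0.06) with an adjusted p of 0.865. A weaker H3K4me3 interval, chr10:21499007-21503140, leaned the other way over the bases of the H3K27ac interval at -0.29. It held 7.34 and 7.11 CPM in DMSO and 8.67 and 7.23 in PR-957, with a log2 fold change of 0.14 (95% interval -0.13 to 0.40) and an adjusted p of 0.892. H3K4me1 at chr10:21498968-21508109 held 15.1 and 17.4 CPM in DMSO and 15.8 and 13.9 in PR-957, with a log2 fold change of -0.13 (95% interval -0.38 to 0.11) with an adjusted p of 0.631.

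The DOCK9 start site had H3K4me3 under its H3K27me3 block and little H3K27ac. H3K4me3 at chr13:99085631-99089079 held 17.3 and 19.1 CPM in DMSO and 19.6 and 18.2 CPM in PR-957. The treatments overlapped, with a log2 fold change of 0.05, a 95% interval of -0.12 to 0.23 and an edgeR adjusted p of 0.945. At 5.28 CPM per kb in DMSO this level was like that of the SKIDA1 start site (5.19), which lacks H3K27me3. H3K27ac at chr13:99085395-99088385 held 3.10 and 2.02 CPM in DMSO, and both PR-957 libraries were higher, from only 20 to 54 counts per library. It was at percentile 4.68 of H3K27ac intervals per kb, and its log2 fold change of 0.48 had a 95% interval of -0.24 to 1.20 and an adjusted p of 0.819. H3K4me1 there, chr13:99085884-99088578, held 2.98 and 2.01 CPM in DMSO and 1.22 and 2.09 in PR-957. Its log2 fold change of -0.56 had a 95% interval of -1.20 to 0.08 and an adjusted p of 0.386. In the intronic block, an H3K4me1 interval at chr13:99045410-99048617 held 7.01 and 6.94 CPM in DMSO and 6.67 and 7.57 in PR-957, with a log2 fold change of 0.04 (95% interval -0.29 to 0.37) with an adjusted p of 0.938. H3K27ac, H3K4me1 and H3K4me3 intervals shared 3.97%, 4.93% and 2.87% of the H3K27me3 bases of the DOCK9 window.

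At VENTX, within the H3K27me3 block, an H3K4me3 interval crossed the start site and an H3K27ac interval ended just before it. H3K4me3 at chr10:133234827-133238500 held 7.56 and 8.34 CPM in DMSO and 9.78 and 7.99 CPM in PR-957. The groups overlapped, with a log2 fold change of 0.16, a 95% interval of -0.09 to 0.41 and an edgeR adjusted p of 0.851. Its level of 2.16 CPM per kb was the lowest of the 3 start sites. H3K27ac at chr10:133234806-133237559 held 9.31 and 10.9 CPM in DMSO and 10.6 and 9.01 in PR-957, with a log2 fold change of -0.05 (95% interval -0.43 to 0.33) with an adjusted p of 0.984. At 3.67 CPM per kb in DMSO it lay between SKIDA1 and DOCK9 (0.856), apart from each by more than the spread of the libraries. The H3K27ac interval of smallest p in the window, chr10:133224874-133226109, lay upstream and was weak, with 14 to 34 counts per library. It held 1.82 and 1.41 CPM in DMSO and 3.42 and 1.90 in PR-957. Its log2 fold change of 0.68 had a 95% interval of -0.30 to 1.65 and an edgeR adjusted p of 0.805. H3K4me1 intervals shared 83.4% of the H3K27me3 bases in the window, H3K4me3 intervals 38.5% and H3K27ac intervals 21.0%, against 9.00%, 9.82% and 8.12% over the genome. Over the gene, chr10:133232851-133246628 held 18.6 and 19.6 CPM of H3K4me1 in DMSO and 17.0 and 19.1 in PR-957, with a log2 fold change of -0.07 (95% interval -0.30 to 0.16) and an adjusted p of 0.818. The 8 H3K4me1 intervals of this locus had log2 fold changes of -0.19 to 0.23. The highest, chr10:133240108-133242275, held 4.44 and 4.77 CPM in DMSO and 5.52 and 5.31 in PR-957, with an edgeR adjusted p of 0.592. A denser H3K4me1 domain toward ADAM8, chr10:133249155-133264851, was at percentile 96.9 per kb and held 76.5 and 72.3 CPM in DMSO and 62.3 and 69.3 in PR-957. Both PR-957 libraries were lower there, but the log2 fold change of -0.18 had a 95% interval of -0.41 to 0.06 and an adjusted p of 0.478.

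**Figure D4:**
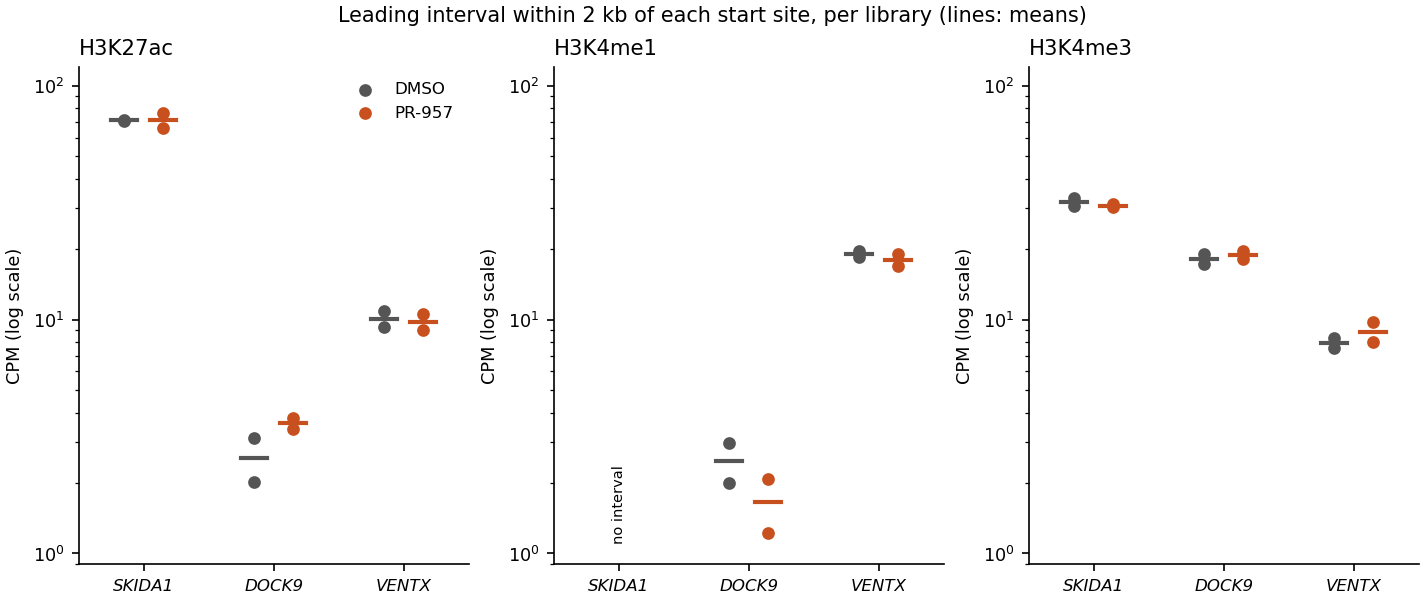
CPM on a log axis in each library for the leading H3K27ac, H3K4me1 and H3K4me3 interval within 2 kb of each start site, with lines at the group means. H3K27ac is highest at SKIDA1 and lowest at DOCK9, and no interval passed the test between PR-957 and DMSO.

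Other Polycomb genes give the setting of these values. Of 54 developmental regulators that are textbook Polycomb targets, 51 had an H3K27me3 interval within 2 kb of a start site, in 50 distinct intervals, and 45 were called lower and 0 higher, against 5.09% lower over all intervals and 1099 of the 3788 that are at least 10 kb wide. With cyclic loess the number was 26. Their median log2 fold change was -0.31, against 0.02 over all intervals, and the range was -0.47 to 0.72. The top of that range came from a weak interval, with 1.06 and 0.617 CPM in DMSO and 1.67 and 1.08 in PR-957. The next highest value was 0.07. TBX5, at -0.47, was the most negative of the list. For the Polycomb machinery, 1 of 8 genes was called for H3K27me3 (PCGF1, a subunit of a PRC1 complex, lower), 0 of 28 for H3K27ac, 1 of 17 for H3K4me1 and 0 of 30 for H3K4me3 in edgeR, with 0 H3K27ac and 0 H3K4me3 genes in DESeq2. Over all intervals, 5.09% were called lower for H3K27me3, 0.238% called for H3K27ac, 1.94% for H3K4me1 and 0.226% for H3K4me3, so 1 call in so few genes says little. The H3K27me3 count was 0 with library size alone, and with cyclic loess it was 1 higher in place of 1 lower. At an unadjusted p under 0.05 there were 1 H3K27ac and 1 H3K4me3 gene. The H3K4me1 call was KDM6B, which encodes a demethylase of H3K27me3. Its interval chr17:7832406-7843214 held 18.7 and 22.2 CPM in DMSO and 15.9 and 13.6 CPM in PR-957, with a log2 fold change of -0.48 ± 0.12 (SE) with an adjusted p of 0.0136. The call was lost with DESeq2, after removing the GC trend and when replicate 2 of either treatment was left out. The H3K4me1 calls over all intervals dropped in these settings too, from 2099 to 26, 958, 690 without the DMSO library and 1756 without the PR-957 library.

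The list of 32 KMT2A target genes includes SKIDA1 and VENTX and is not independent of their choice. Of the 16 genes with an H3K27me3 interval, 12 were called lower and 0 higher. These 16 genes had 9 distinct intervals, and 5 of those were called lower. Among the 5 is the SKIDA1 interval, chosen by this contrast. Over all intervals 5.09% were called lower, and 1099 of the 3788 of at least 10 kb. The HOXA genes share a long interval there, so these are few separate observations. For H3K27ac, 7 of 27 genes were called lower in 3 distinct intervals, those of the HOXA genes, of MEIS1 and of MBNL1, against 0.238% of all intervals in either direction. MBNL1, which encodes a splicing factor, held 119 and 125 CPM in DMSO and 101 and 107 CPM in PR-957, with a log2 fold change of -0.23 with an edgeR adjusted p of 0.041. The number was 1 with cyclic loess and when replicate 2 of either treatment was left out. For H3K4me1 0 of 21 and for H3K4me3 0 of 29 genes were called in edgeR, and 0 in DESeq2, against 1.94% and 0.226% of all intervals in edgeR. At an unadjusted p under 0.05 there were 4 and 8 genes, in 3 distinct intervals each, since HOXA genes share theirs. The H3K4me3 values were all negative, and of the H3K4me1 intervals 2 were negative and 1 positive.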

How the data were processed

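The files hold whole-number counts, not normalized, that the authors deposited per interval for 4 libraries of each histone modification. The submitters' processing notes name Trimmomatic 0.39, Bowtie2 2.2.5, Picard 2.27.1, SAMtools 1.7, SEACR 1.3, deepTools 3.5.1 and hg38. The counter and the handling of duplicates are not given in the sources used here. Intervals overlap, since each list joins several calls of the same locus, and overlapping or adjoining ones were merged to count loci. Within each modification, intervals kept by filterByExpr (minimum count 10) were scaled by TMM and tested by edgeR 4.0.16 (quasi-likelihood, R 4.3.3) with Benjamini-Hochberg adjustment over all of them at 0.05, without the replicate number as a block. SE values and 95% intervals are of the log2 fold change from that fit. Alternatives were other scalings (limma 3.58.1 for cyclic loess), a GC trend removed, DESeq2 1.42.0, other count filters and windows, a replicate block and leaving out each library. With 2 libraries against 2, an exact permutation test cannot go below 0.333. Gene models are GENCODE release 44, and a start site is that of a protein-coding transcript, for DOCK9 the outermost. A gene of a list is represented by its interval of highest mean count within 2 kb of a start. Named intervals are, per member and modification, the gene body and start site intervals of highest mean count and the interval of smallest unadjusted p, and from each list up to 3 genes of smallest p. Other coordinates were chosen after their values were seen. The members and lists were chosen with earlier results of these data known.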

Additional observations from a re-analysis of the deposited data

How the results depend on the processing

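The number of called window intervals was 17 for H3K27me3 and stayed at 15 to 24 in edgeR with other scalings, in DESeq2 and with other count filters, all lower but for 7 at VENTX with library size alone, 4 with cyclic loess and 4 at a mean count of at least 50. It was 14 in gene bodies and 21 with 50 kb either side, and 16 to 19 without each library in turn. With 1 interval per merged locus it was 3, since overlapping intervals then count once. With the replicate block it was also 17, and 0 for each other modification. Replicate numbers correlated between treatments at -0.0069, -0.0089, 0.0068 and 0.167 for H3K27me3, H3K27ac, H3K4me1 and H3K4me3, near 0 in the first 3 and weakly positive for H3K4me3, from 2 pairs each, and no pairing was used. For H3K27ac, H3K4me1 and H3K4me3 the number stayed 0 under the 15 alternatives of each.

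Of 265 values of named intervals under alternatives, 248 kept direction and side of the threshold. None of those that changed sign was called, and the cause was not tested. For SKIDA1 H3K27ac at the start site they were -0.0027 with the replicate block, -0.017 with 1 interval per locus and -0.11 to 0.10 without each library. For VENTX H3K27ac the range without each library was -0.16 to 0.073. For DOCK9 H3K4me1 in the intron the value was -0.011 with 1 interval per locus and -0.063 to 0.12 without each library, and at the internal start, where it was -0.22 with all libraries, -0.49 to 0.065. For VENTX H3K4me1 over the gene it was 0.064 with the GC trend removed and -0.16 to 0.0050 without each library. For DOCK9 H3K4me3 the range was -0.019 to 0.13, and for the interval of smallest p -0.016 to 0.13 and -0.017 with the GC trend removed.

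For the lists, the alternatives were added after seeing the data. The KMT2A targets gave 1 call for H3K27ac with cyclic loess and 1 to 6 without each library. The Polycomb machinery gave 0 calls for H3K27me3 with library size alone, 2 with the GC trend removed, 0 to 2 without each library and, with cyclic loess, 1 higher in place of 1 lower, and 0 for H3K4me1 with the GC trend removed and in DESeq2 and 0 to 1 without each library. The Polycomb targets gave 26 with cyclic loess. Few counts at the DOCK9 start site limit what H3K27ac and H3K4me1 can show there.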
